A study of Mus musculus with 6 samples.

Results

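The genes described here are *Trem2*, *Tyrobp*, *Syk* and 29 other genes of haematopoietic signalling, 32 of the 53746 genes in the count table. They were taken by symbol as the receptor *Trem2* and its adaptor *Tyrobp*, the kinases, phosphatases, adaptors and lipid enzymes linked to such receptors, and regulators of the cytoskeleton in blood cells. Their RNA was measured in whole cerebella of 3 N153SLSL/LSLPcp2-cre mice (Pcp2-cre mice) and 3 N153SLSL/LSL mice (controls), all aged 2 months. Both genotypes carry 2 copies of a *Sting1* N153S knockin allele behind a LoxP-Stop-LoxP cassette. In Pcp2-cre mice the *Pcp2* promoter drives Cre in Purkinje cells, where it removes the cassette and frees a constitutively active STING, an innate immune adaptor. Controls carry no Cre. Mice 1 and 2 of each genotype are males and mouse 3 is a female. The comparison asks how these genes, which blood and microglial cells use, differ in cerebella whose Purkinje cells express the mutant protein.

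In microglia and other myeloid cells, TREM2 binds lipids and lipoproteins on the cell surface and has no signalling tail of its own. It pairs with TYROBP (DAP12), whose immunoreceptor tyrosine-based activation motif (ITAM) is phosphorylated by Src family kinases and then docks the kinase SYK. SYK passes the signal through adaptors to phospholipase C gamma, PI3K and exchange factors for small GTPases, which remodel actin and drive phagocytosis, adhesion and survival, while phosphatases restrain it.

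Total counts per mouse were between 6733178 and 10178218. CPM are counts scaled to library size after TMM normalization, and FPKM, deposited by the authors, scale fragments to gene length as well. A floor of 3 counts came to at most 0.447 CPM in any library and covers counting error only. The engineered gene, *Sting1*, averaged 25.5 CPM (SD 2.09, n = 3 mice) in controls and 38.0 CPM (SD 5.55, n = 3 mice) with Cre, but its counts do not separate mutant from normal transcript. Every library held the RNA of cerebellar neurons: the 6 Purkinje cell markers summed to between 5888 and 6460 CPM in controls and between 3147 and 3454 CPM in Pcp2-cre mice. Each value comes from a whole cerebellum, so more cells of a type and more RNA per cell cannot be told apart.

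Most of the 32 genes were higher in Pcp2-cre cerebella. Of the 29 with enough counts to be tested, 22 were called upregulated and 7 were not called, against 1.37% of all 16961 tested genes called upregulated. None was called downregulated by edgeR's quasi-likelihood test, by DESeq2 or at an unadjusted p under 0.05, against 1.79% of all tested genes called downregulated. Calls required an adjusted p (Benjamini-Hochberg, over every tested gene) no greater than 0.05 and a log2 fold change of 0.5 or more in either direction. A gene was tested if it had enough counts in as many mice as a genotype holds. Genes low in controls, such as *Syk* and *Blnk*, were thus tested only through their Pcp2-cre counts, and a low gene without a change could be left out. With at least 10 counts required in every mouse, 10 of 16 genes were called upregulated, beside 160 of 15755 over all genes. The median log2 fold change of the 29 was 1.23, beside 0.0045 over all tested genes. All 29 were above 0, as were 51.3% of all tested genes, and 20 were called with a log2 fold change of 1 or more, as were 0.837% of all tested genes. Every Pcp2-cre mouse had more CPM than every control for 26 of the 29, which held for 10.8% of all tested genes. The exceptions were *Pik3cd*, *Coro1a* and *Lcp1*. In FPKM the genotypes did not overlap for 31 of the 32 genes, the exception being *Lyn*, against 11.3% of the tested genes.

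Summed over the 32 genes, CPM came to 172, 161 and 171 in the controls (mice 1, 2 and 3, the order used throughout) and to 289, 271 and 309 in the Pcp2-cre mice. These sums were a small share of each library, between 0.0158% and 0.0169% of counts in controls and between 0.0274% and 0.0310% in Pcp2-cre mice. The genotypes did not overlap in the sum, and the spread within each was small beside the difference between them.

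**Figure D1:**
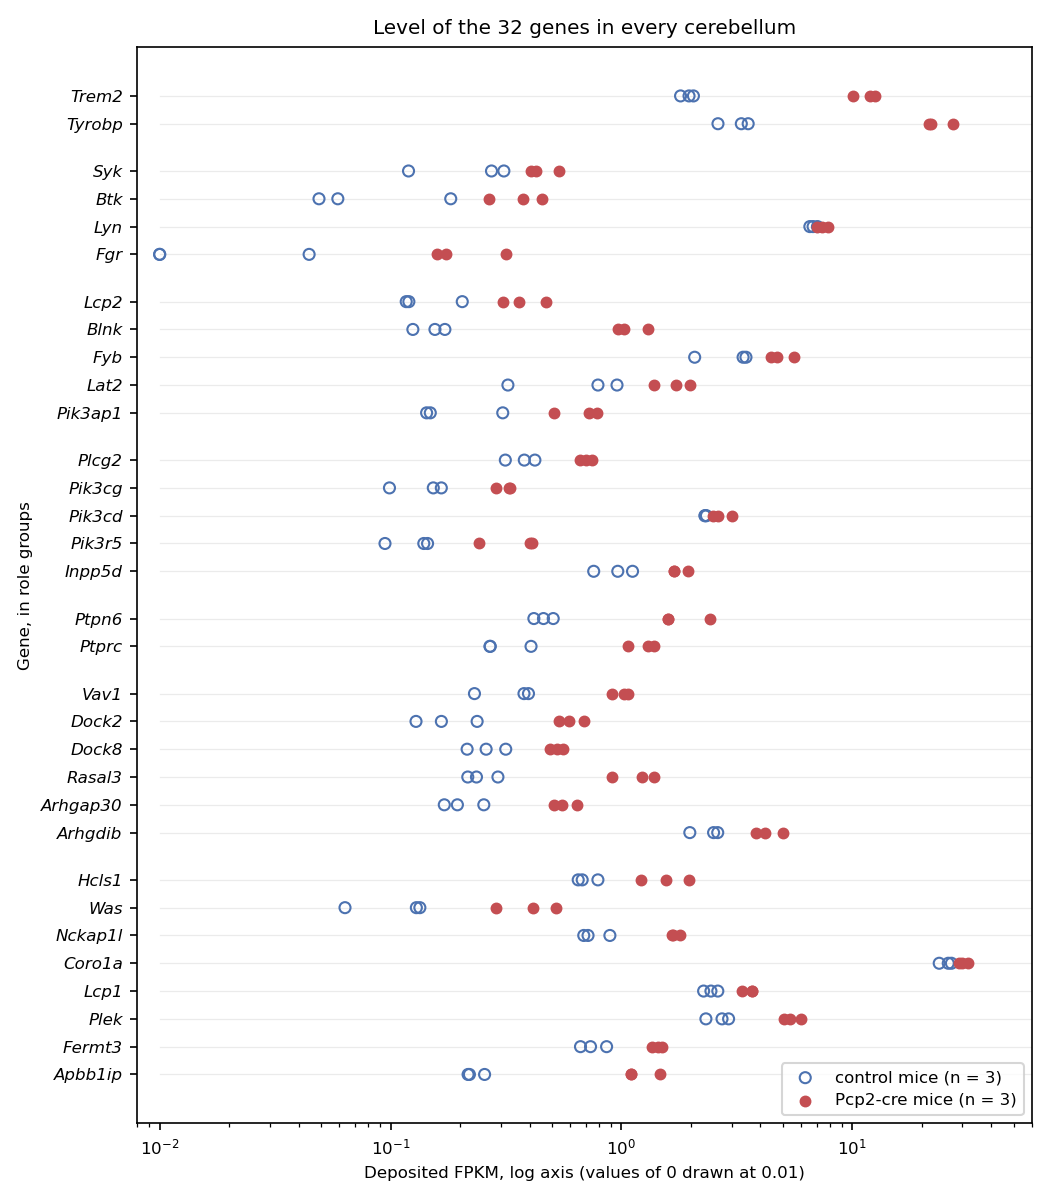
FPKM of the 32 genes in each mouse, on a log axis and grouped by role, with open circles for the 3 control and filled circles for the 3 Pcp2-cre mice and values of 0 drawn at 0.01. The groups are separate for every gene but *Lyn*, and the widest gaps at a level above 1 FPKM are those of *Trem2* and *Tyrobp*.

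The receptor and its adaptor were among the most changed of these genes. *Trem2* (ENSMUSG00000023992, GRCm39 chr17:48653429-48661175, forward strand) had 27, 16 and 26 counts in controls and 140, 120 and 133 counts in Pcp2-cre mice. Per length this was 2.05, 1.96 and 1.80 FPKM in controls and 11.9, 10.04 and 12.6 FPKM in Pcp2-cre mice. The genotypes were far apart and each was tight. *Trem2* rose 6.15-fold, or by 2.62 on the log2 scale (standard error 0.183, edgeR adjusted p = 1.94e-09).

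*Tyrobp* (ENSMUSG00000030579, chr7:30113170-30117010, forward strand), which encodes the ITAM adaptor of TREM2 and of several other myeloid receptors, rose as well. It had 16, 16 and 18 counts in controls and 121, 110 and 114 counts in Pcp2-cre mice. No control came near the lowest Pcp2-cre mouse. On the log2 scale it rose by 2.89 (standard error 0.189, edgeR adjusted p = 8.14e-10). Per length *Tyrobp* went from 3.15 ± 0.478 to 23.6 ± 3.18 FPKM (SD, n = 3 mice each). This difference of 20.4 FPKM was 35.8% of the difference summed over the 32 genes, and that of *Trem2*, 9.56 FPKM, was 16.8%.

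The ratio of *Tyrobp* to *Trem2* in FPKM was 1.28, 1.80 and 1.83 in controls against 1.81, 2.19 and 2.16 in Pcp2-cre mice. The groups overlapped (two-sided exact permutation test, p = 0.2, adjusted p = 0.221 over the 32 ratios computed here). An exact permutation test of 3 mice against 3 cannot go below p = 0.1.

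*Syk* (ENSMUSG00000021457, chr13:52736696-52802828, forward strand), the kinase that docks on phosphorylated ITAMs, rose by a smaller fold. It had 6, 7 and 12 counts in controls and 20, 29 and 17 counts in Pcp2-cre mice, without overlap. The rise was 1.49 on the log2 scale (standard error 0.302, edgeR adjusted p = 0.00217), but DESeq2 gave an adjusted p of 0.0623. Per length *Syk* went from 0.234 ± 0.101 to 0.456 ± 0.0699 FPKM (SD, n = 3 mice each). The ratio of *Syk* to *Tyrobp* in FPKM was 0.0773 ± 0.0381 in controls and 0.0197 ± 0.00443 in Pcp2-cre mice, where all 3 lay below all 3 controls (exact permutation test, two-sided p = 0.1 and adjusted p = 0.114, the smallest p that this design allows).

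The sequence just before the start of these genes was searched for GAGGAA on both strands, since the ETS factor PU.1 of myeloid cells binds such purine-rich letters. The 250 bases before the annotated start held it in 12 of the 32 genes (37.5%), in 22.9% of 21770 protein-coding genes and in 6 of 30 widely expressed paralogs of these genes (20%). Within 50 bases of the start, a limit chosen after the positions were seen, it was present in 7 of the 32 genes (21.9%) and in 4.88% of all protein-coding genes. In *Trem2* and *Syk* the letters lay on the reverse strand and began 40 and 31 bases before the start. The 100 bases before the start are shown for these genes, for *Vav1*, whose match was nearest to the start, and for *Blnk*, the most changed by fold, which had none in its window. They were read from GRCm39 along the strand of each gene, with starts from Gencode M39, and capitals mark GAGGAA or its reverse complement TTCCTC.
Trem2, chr17:48653329-48653428, forward strand: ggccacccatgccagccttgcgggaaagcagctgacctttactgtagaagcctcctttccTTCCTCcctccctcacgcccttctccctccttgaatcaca
Syk, chr13:52736596-52736695, forward strand: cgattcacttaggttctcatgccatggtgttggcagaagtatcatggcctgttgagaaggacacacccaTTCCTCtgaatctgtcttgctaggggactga
Vav1, chr17:57585995-57586094, forward strand: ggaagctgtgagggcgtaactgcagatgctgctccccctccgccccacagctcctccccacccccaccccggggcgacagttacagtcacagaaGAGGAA
Blnk, chr19:40982979-40983078, reverse strand: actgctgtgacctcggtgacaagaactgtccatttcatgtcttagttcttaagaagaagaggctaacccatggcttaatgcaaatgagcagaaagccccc
A match describes these letters and is not a measured binding site.

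Of the other kinases, *Lyn* differed little and *Btk* and *Fgr* had few counts. *Lyn*, a Src family kinase that phosphorylates ITAMs, was the most abundant kinase here per length and was not called. It had 228, 189 and 265 counts in controls and 236, 250 and 226 counts in Pcp2-cre mice. All Pcp2-cre mice lay slightly above the controls in CPM, but the genotypes overlapped in FPKM. Its log2 fold change was 0.17 (95% confidence interval 0.001 to 0.342, edgeR adjusted p = 0.273), so its interval leaves out a change of the size of *Syk*.

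*Btk*, the Tec family kinase that activates phospholipase C gamma, and *Fgr*, a Src family kinase of myeloid cells, did not pass the filter on low counts. *Btk* had 1, 1 and 6 counts in controls and 10, 10 and 5 counts in Pcp2-cre mice. *Fgr* had 0, 0 and 2 counts in controls and 5, 8 and 9 counts in Pcp2-cre mice. The counts of *Btk* overlapped, although its CPM did not, and those of *Fgr* did not. Pooled over mice and scaled to library size, the ratio of Pcp2-cre to control counts was 3.37 for *Btk* (exact 95% counting interval 1.47 to 8.65) and 11.9 for *Fgr* (2.92 to 104.1). Without the filter on low counts edgeR gave adjusted p = 0.0342 for *Btk* and 4.95e-04 for *Fgr*, whereas DESeq2 gave 0.462 and 0.113.

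All 5 adaptors were called upregulated. *Blnk* (ENSMUSG00000061132), which links SYK to phospholipase C gamma and is best known from B cells, had the highest fold change of the 29 tested genes. It had 2, 1 and 2 counts in controls and 26, 29 and 21 counts in Pcp2-cre mice. Every control lay at or under the floor of 3 counts, and every Pcp2-cre mouse lay far above it. Its fitted log2 fold change was 3.93 (standard error 0.396, edgeR adjusted p = 4.36e-07), which depends on the few control counts. The pooled count ratio was 16.4 (exact 95% counting interval 6.73 to 51.9), whereas the ratio of mean FPKM was 7.30.

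*Fyb*, an adaptor that couples receptors to integrins and is named *Fyb1* in Gencode M39, rose by 2.09 on the log2 scale (edgeR adjusted p = 1.14e-05). Its fold depended on the table, at 4.31 in CPM and 1.66 in FPKM, and its exons overlap those of 4 other annotated genes. *Lcp2*, a scaffold that binds phospholipase C gamma and VAV proteins, rose by 1.69 (adjusted p = 0.00463). *Pik3ap1*, which brings PI3K to receptors, and *Lat2*, a membrane scaffold, rose by 1.54 and 1.14 (adjusted p = 0.00205 and 9.57e-04). Exons of *Lat2* share 1708 bases with the opposite-strand gene *Rfc2*, whose own log2 fold change was -0.01.

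**Figure D2:**
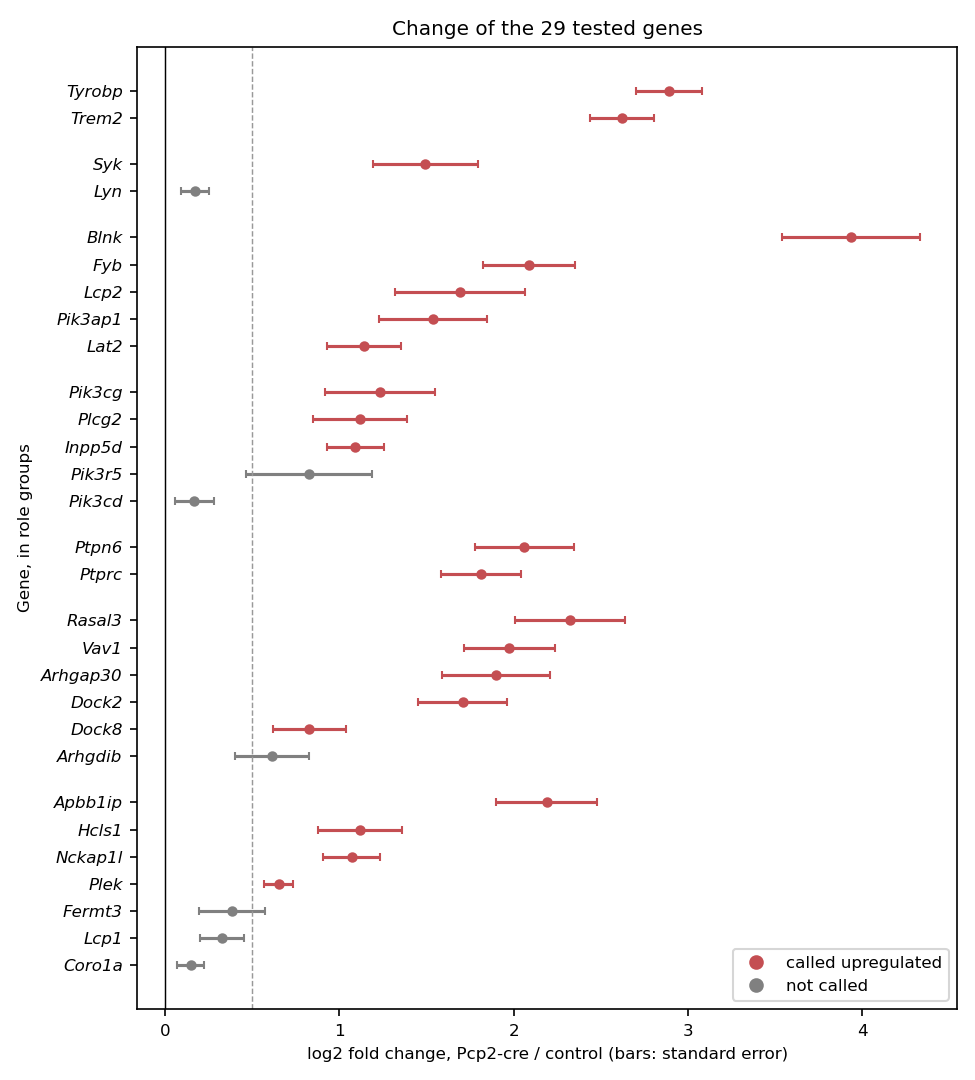
Log2 fold change of Pcp2-cre over control for the 29 tested genes, with bars for the standard error, grouped by role and coloured by whether edgeR called the gene. All 29 points lie above 0, the dashed line marks the threshold of 0.5, and the 7 genes not called lie between 0.15 and 0.83.

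Of the 5 lipid enzymes, 3 were called. *Inpp5d* (ENSMUSG00000026288), which encodes the lipid phosphatase SHIP1 that opposes PI3K, had 37, 38 and 47 counts in controls and 82, 80 and 79 counts in Pcp2-cre mice. The genotypes were well apart, and its log2 fold change was 1.09 (standard error 0.164, edgeR adjusted p = 9.13e-05). *Plcg2*, the phospholipase C gamma of blood cells, rose by 1.12 (adjusted p = 0.00991). *Pik3cg*, a catalytic subunit of PI3K downstream of G protein-coupled receptors, rose by 1.23 (adjusted p = 0.0159). The calls of *Plcg2* and *Pik3cg* were lost with DESeq2 and with some single mice left out.

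The 2 lipid enzymes not called were PI3K subunits. *Pik3cd*, the catalytic subunit used by ITAM-linked receptors, had 126, 83 and 155 counts in controls and 118, 151 and 109 counts in Pcp2-cre mice, and its CPM overlapped. Its log2 fold change was 0.17 (95% confidence interval -0.067 to 0.401, edgeR adjusted p = 0.494). Its exons share 1244 bases with *Clstn1* on the opposite strand, a neuronal gene with 694 CPM in controls. *Pik3r5*, the regulatory partner of *Pik3cg*, had 5, 8 and 10 counts in controls and 13, 11 and 14 counts in Pcp2-cre mice, without overlap. Its log2 fold change was 0.83 with a wide interval (95% confidence interval 0.070 to 1.58, edgeR adjusted p = 0.220).

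Both protein tyrosine phosphatases were called. *Ptprc* (ENSMUSG00000026395) encodes CD45, the pan-leukocyte phosphatase that keeps Src family kinases ready to act. It had 19, 15 and 18 counts in controls and 66, 49 and 55 counts in Pcp2-cre mice, without overlap. On the log2 scale *Ptprc* rose by 1.81 (standard error 0.230, edgeR adjusted p = 1.07e-05). *Ptpn6*, which encodes the inhibitory phosphatase SHP-1, rose by 2.06 (standard error 0.284, adjusted p = 3.18e-05). *Inpp5d* and *Ptpn6*, which restrain ITAM signalling, were called, as were *Tyrobp*, *Syk* and some other genes that carry it. *Lyn* and *Pik3cd*, which also carry it, were not called, and *Btk* was not tested.

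Of the 6 regulators of small GTPases, 5 were called. *Vav1* (ENSMUSG00000034116), an exchange factor for Rac that SYK phosphorylates, had 11, 6 and 11 counts in controls and 30, 41 and 32 counts in Pcp2-cre mice. The lowest Pcp2-cre mouse was well above the highest control, and its log2 fold change was 1.97 (standard error 0.261, edgeR adjusted p = 1.88e-05). *Rasal3*, a Ras GTPase-activating protein of blood cells, rose by 2.33 (adjusted p = 2.56e-05) and *Arhgap30*, a GTPase-activating protein, by 1.90 (adjusted p = 2.32e-04). *Dock2*, the Rac exchange factor of leukocyte migration, rose by 1.71 (adjusted p = 8.13e-05) and *Dock8*, a Cdc42 exchange factor, by 0.83 (adjusted p = 0.0151). *Arhgdib*, which holds small GTPases inactive in the cytosol, was not called. It had 29, 22 and 34 counts in controls and 39, 37 and 44 counts in Pcp2-cre mice. No Pcp2-cre mouse fell among the controls, but with a log2 fold change of 0.61 (95% confidence interval 0.172 to 1.05) its edgeR adjusted p was 0.0905.

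Of 7 tested regulators of the cytoskeleton and of integrins, 4 were called upregulated. *Plek* (ENSMUSG00000020120), a protein kinase C substrate of platelets and leukocytes, had the smallest p of the group. It had 191, 143 and 241 counts in controls and 269, 298 and 267 counts in Pcp2-cre mice, without overlap. In counts its rise was small but precise, at 0.65 on the log2 scale (standard error 0.0835, edgeR adjusted p = 1.23e-05). The ratio of means was larger in FPKM, at 2.06 against 1.58 in CPM. *Apbb1ip*, which links Rap1 to talin and integrins, rose by 2.19 (adjusted p = 2.00e-05). *Hcls1*, the cortactin of blood cells, and *Nckap1l*, a subunit of their WAVE complex, rose by 1.12 and 1.07 (adjusted p = 0.00389 and 1.02e-04).

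The 3 genes of this group that were tested and not called had the following counts. *Coro1a*, an actin-binding coronin of leukocytes that neurons also express, had 362, 260 and 476 counts in controls and 388, 406 and 326 counts in Pcp2-cre mice. *Lcp1*, an actin bundler, had 89, 87 and 113 counts in controls and 92, 137 and 108 counts in Pcp2-cre mice. *Fermt3*, the kindlin that activates integrins in blood cells, had 40, 24 and 47 counts in controls and 40, 53 and 41 counts in Pcp2-cre mice. In CPM the genotypes overlapped for *Coro1a* and *Lcp1* but not for *Fermt3*. Their log2 fold changes were 0.15 (95% confidence interval -0.010 to 0.302), 0.33 (0.060 to 0.592) and 0.38 (-0.014 to 0.783), with edgeR adjusted p = 0.321, 0.152 and 0.300. Exons of *Fermt3* share 1552 bases with *Trpt1* on the opposite strand. In FPKM its ratio of means was 1.90, against 1.32 in CPM.

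*Was*, which activates the Arp2/3 complex in blood cells, did not pass the filter. It had 1, 4 and 2 counts in controls and 8, 10 and 8 counts in Pcp2-cre mice, without overlap. The pooled ratio was 4.01 (exact 95% counting interval 1.69 to 10.9). Without the filter edgeR gave adjusted p = 0.0117, and DESeq2 gave 0.317.

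By level per length, these genes ranged over 3 orders of magnitude. *Coro1a* was the highest in both genotypes, with 25.6 ± 1.59 FPKM in controls and 30.1 ± 1.33 FPKM in Pcp2-cre mice (SD, n = 3 mice each). *Lyn* followed in controls with 6.79 ± 0.259 FPKM, ahead of *Tyrobp*, *Fyb*, *Plek*, *Lcp1*, *Arhgdib* and *Pik3cd*, all between 2.31 and 3.15 FPKM. *Trem2* moved from rank 9 to rank 3 and *Tyrobp* from rank 3 to rank 2. In controls 23 of the 32 genes lay under 1 FPKM, and in Pcp2-cre mice 13 did. *Fgr* was the lowest in both genotypes, with 0.0148 FPKM in controls and 0.216 FPKM in Pcp2-cre mice.

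The genes that were not called were mostly those with a high level. Of 9 tested genes with a mean of at least 2 FPKM over all mice, 4 were called (*Trem2*, *Tyrobp*, *Fyb* and *Plek*), with a median log2 fold change of 0.61 over the 9. Of the 20 below 2 FPKM, 18 were called, with a median of 1.52, and the others were *Pik3r5* and *Fermt3*. This limit was chosen with the values known, and the counts are a description. Low genes such as *Syk* passed the filter on low counts only through their Pcp2-cre mice. A low gene without a change could be left out, so the share called below 2 FPKM follows in part from the filter.

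**Figure D3:**
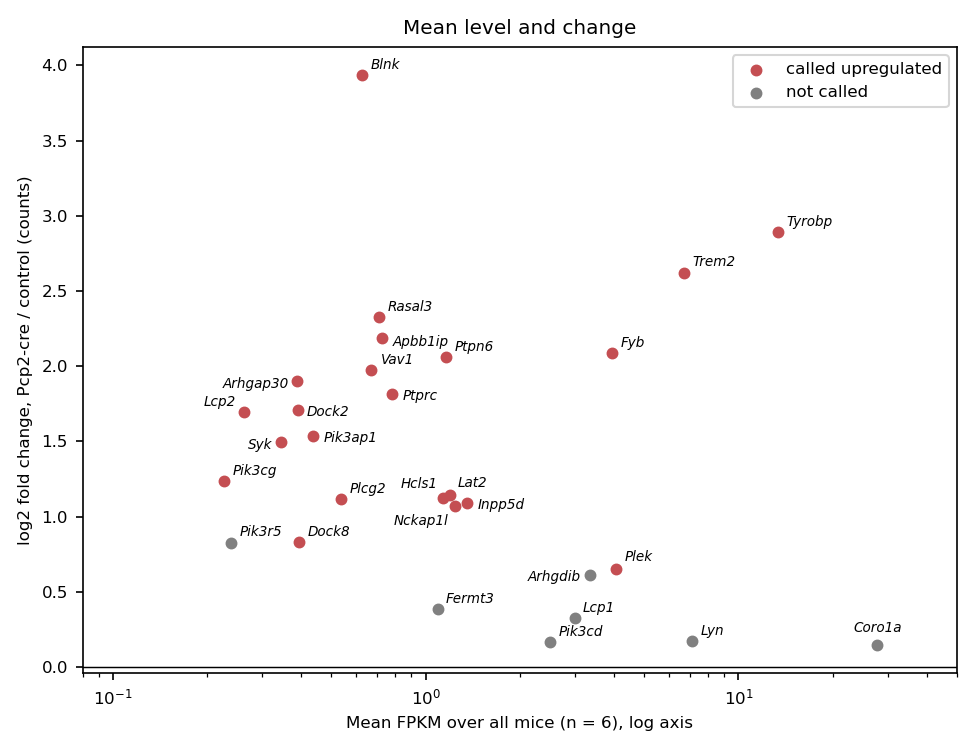
Log2 fold change of the 29 tested genes against their mean FPKM over all 6 mice, on a log axis, with points coloured by edgeR's call. *Coro1a*, *Lyn*, *Pik3cd*, *Lcp1* and *Arhgdib* form the lower right, *Trem2*, *Tyrobp* and *Fyb* stand above them at a like level, and *Blnk* is highest.

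Many of these genes have paralogs that most cell types express, and 30 such paralogs of 19 of the genes were compared with them. All 30 passed the filter and none was called in either direction by edgeR's quasi-likelihood test or by DESeq2, where 1.37% and 1.79% of all tested genes were called by edgeR. At an unadjusted p under 0.05 there were 4 above and 4 below 0. Their median log2 fold change was 0.02 and their range -0.50 to 0.22. By the adjusted p alone, with no fold threshold, 2 were higher (2.99% of all tested genes), the PI3K regulatory subunits *Pik3r1* and *Pik3r3*, by 0.21 and 0.22. In the same way 4 were lower (4.75% of all tested genes), *Vav3*, *Arhgap31*, *Rasal2* and *Pls3*, with log2 fold changes of -0.50, -0.40, -0.28 and -0.24.

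In the first 5 pairs given here the blood-cell gene was the minor form per length in both genotypes. The ratio of *Vav1* to *Vav2* in FPKM was 0.129, 0.106 and 0.0781 in controls and 0.257, 0.222 and 0.320 in Pcp2-cre mice, without overlap. For *Ptpn6* to *Ptpn11* the ratio was 0.0107 ± 0.0011 in controls and 0.0435 ± 0.0128 in Pcp2-cre mice, and for *Plcg2* to *Plcg1* it was 0.0144 ± 0.00193 and 0.0272 ± 0.00221 (SD, n = 3 mice each). Ratios of *Inpp5d* to *Inppl1* were 0.0966 ± 0.0217 and 0.167 ± 0.0163, and of *Nckap1l* to *Nckap1* 0.0106 ± 0.00148 and 0.0248 ± 0.000634. Each of these 5 ratios had p = 0.1 in the two-sided exact permutation test, the smallest possible, and an adjusted p of 0.114. The 5 blood-cell genes were already without overlap in FPKM and their paralogs differed less, so these tests restate the rise and add no separate support. The ratios of *Lyn* to *Src*, *Fyn* and *Yes1* overlapped between genotypes.

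**Figure D4:**
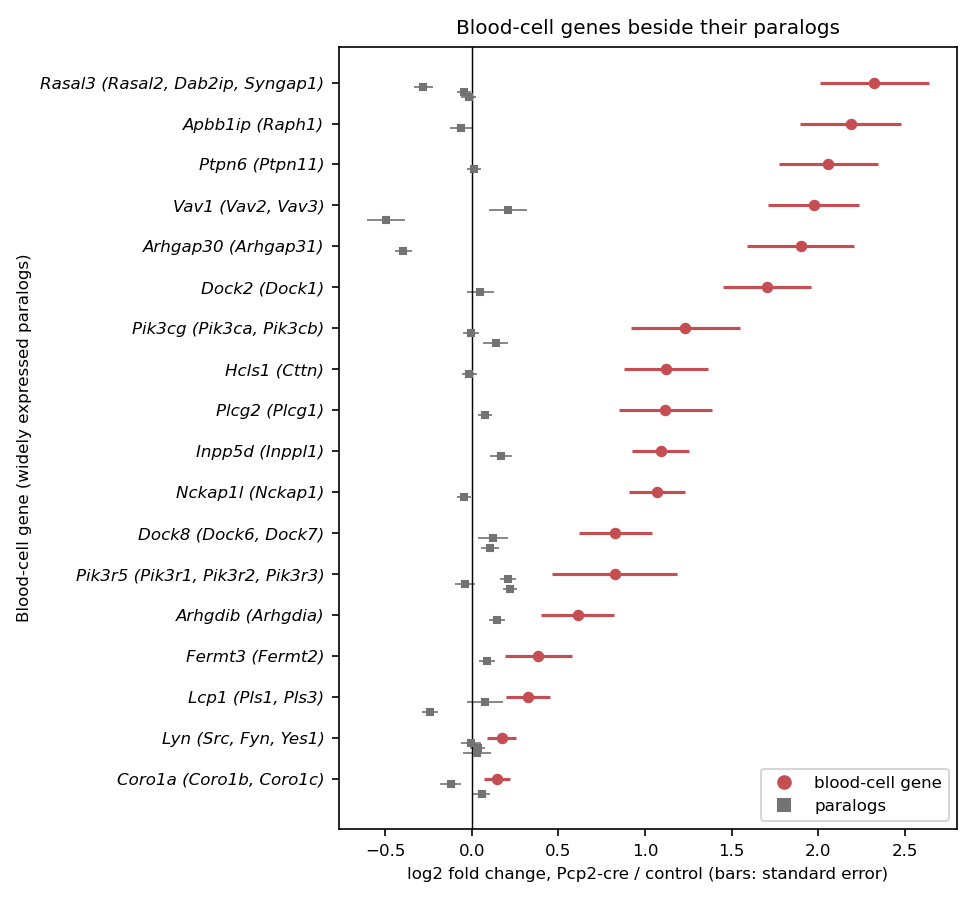
Log2 fold change of Pcp2-cre over control for 18 tested blood-cell genes (circles) and their widely expressed paralogs (squares), with bars for the standard error. The paralogs lie between -0.50 and 0.22 while the blood-cell genes lie between 0.15 and 2.33.

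Other genes around the pathway were taken from a list of 41, of which 27 passed the filter. Of these, 4 were called upregulated, against 1.37% of all tested genes, and the median log2 fold change of the 27 was 0.11. None was called downregulated by edgeR (1.79% of all tested genes) or by DESeq2, and 1 had an unadjusted p under 0.05 and a negative change. *Apoe*, a lipoprotein that TREM2 binds, rose by 0.64 (edgeR adjusted p = 3.37e-09), and *Clu*, another such ligand, had a log2 fold change of 0.23 (adjusted p = 0.00147), under the fold threshold. *Adam10* and *Adam17*, proteases that shed TREM2, had log2 fold changes of 0.06 and 0.08 (adjusted p = 0.484 and 0.642). *Ncstn*, of the complex that clears the stub left by shedding, was at -0.01.

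Beside *Trem2* in its gene cluster, *Treml2* had no count in any control and 6, 8 and 7 counts in Pcp2-cre mice, each of which lay above the floor of 3 counts per library. *Trem1*, *Trem3*, *Treml1* and *Treml4* had at most 1 count in any mouse. The low counts of this cluster, apart from *Trem2*, give no finer comparison.

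From a list of 8 other ITAM-linked receptors and adaptors, 4 were tested and 3 were called upregulated, against 1.37% of all tested genes. The tested gene that was not called was *Siglech*. *Clec7a* and *Cd300c2* were tested only through their Pcp2-cre counts, so these calls follow in part from the filter. Among the genes not tested, *Hcst* and *Cd300lb* overlapped between genotypes in CPM, *Clec5a* did not, and *Sirpb1a* had no counts. *Fcer1g*, the other ITAM adaptor of myeloid cells, had 10, 19 and 22 counts in controls and 55, 65 and 62 counts in Pcp2-cre mice. This adaptor rose by 1.94 on the log2 scale (standard error 0.234, edgeR adjusted p = 5.62e-06). *Clec7a*, the beta-glucan receptor with its own SYK-binding tail, had 3, 1 and 5 counts in controls and 90, 67 and 80 counts in Pcp2-cre mice, a pooled ratio of 28.4 (exact 95% counting interval 14.7 to 62.9). *Cd300c2*, a receptor of the CD300 family, rose by 1.70 (adjusted p = 0.0025). *Siglech*, a TYROBP-linked lectin, had a log2 fold change of 0.15 (adjusted p = 0.766).

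None of 17 tested genes of a list of other SYK pathway signalling genes was called by edgeR or DESeq2. Over all tested genes edgeR called 1.37% upregulated and 1.79% downregulated, so a list of 17 would often hold no call. Of the 17, 3 were higher and 1 was lower at an unadjusted p under 0.05. The 17 included the adaptors *Grb2* and *Gab2* (log2 fold changes of -0.12 and -0.08), the ubiquitin ligases *Cbl* and *Cblb* (-0.06 and 0.11), the CARD9 complex genes *Card9*, *Bcl10* and *Malt1* (0.24, -0.05 and 0.12) and the kinases *Prkcb* and *Prkcd* (-0.0033 and -0.0040). *Skap2*, the partner of FYB in integrin signalling, had a log2 fold change of 0.45 (adjusted p = 0.0238), under the fold threshold. *Rac2*, the Rac of blood cells, did not pass the filter, with 5, 5 and 8 counts in controls and 14, 17 and 7 counts in Pcp2-cre mice.

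Markers of microglia moved with these genes. Of 10, 7 were called upregulated, against 1.37% of all tested genes. Among the 7 were *Fcrls*, *Gpr34*, *Cx3cr1*, *Olfml3*, *Csf1r* and *Sall1* with log2 fold changes of 2.89, 1.85, 1.48, 1.06, 0.96 and 0.87. *P2ry12*, *Siglech* and *Tmem119* were not called, with log2 fold changes of 0.28, 0.15 and 0.06 and adjusted p = 0.495, 0.766 and 0.922. The 10 markers summed to between 114 and 119 CPM in controls and between 266 and 282 CPM in Pcp2-cre mice. Their part in the results above was not tested.

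Markers of other blood cells were low. None of 6 tested border macrophage markers was called by edgeR or DESeq2 or had an unadjusted p under 0.05, and the 8 on the list summed to between 13.8 and 16.8 CPM in controls and between 14.6 and 19.7 CPM in Pcp2-cre mice. The 11 T and NK cell markers summed to between 1.37 and 2.38 CPM and between 2.63 and 3.46 CPM, with *Cd3g* and *Nkg7* at 0 in all mice, *Cd3e* at no more than 4 counts and *Trbc2* at 0, 0 and 0 counts in controls and 3, 9 and 4 counts in Pcp2-cre mice. The 6 B cell markers, whose *Ms4a1* had no more than 1 count in a mouse, summed to between 2.23 and 2.48 CPM and between 2.52 and 3.92 CPM, and *Blnk* rose beside them from 0.199 to 3.29 CPM in the mean. The 9 neutrophil and monocyte markers summed to between 1.64 and 4.24 CPM and between 1.92 and 5.66 CPM, with *Ly6g* at 0 in all mice. Red cell and platelet markers varied within each genotype, between 15.6 and 65.1 CPM in controls and between 7.69 and 47.3 CPM in Pcp2-cre mice, and overlapped between them. The part of these cells in the results was not tested. Of the cerebellum's own cells, 5 of 6 Purkinje cell markers were called downregulated, and none of 6 granule cell markers was called by edgeR or DESeq2, although 2 had an unadjusted p under 0.05 and were higher. Of 5 astrocyte markers, *Gfap* and *Aqp4* were called upregulated, by 1.94 and 0.51 on the log2 scale. *Slc1a3* and *Gdf10* were lower in every Pcp2-cre mouse, with log2 fold changes of -0.22 and -0.25 (edgeR adjusted p = 9.95e-05 and 0.00424) that did not reach the fold threshold, *Aldh1l1* was at 0.08 (adjusted p = 0.563), and the median of the list was 0.08.

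**Figure D5:**
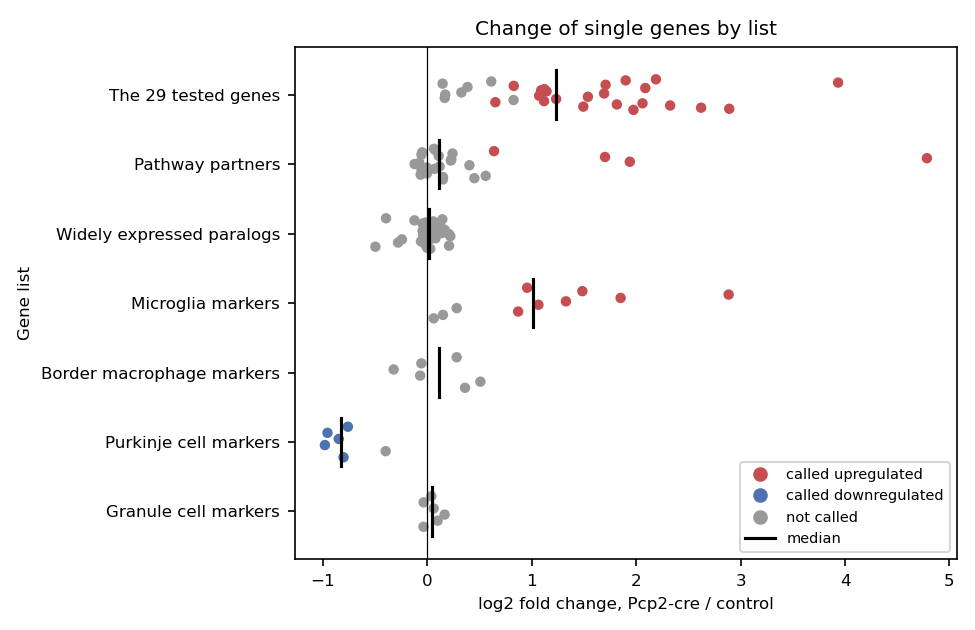
Log2 fold change of single tested genes by list, with a bar for the median of each list and colours for edgeR's call. The 29 tested genes (median 1.23) and the microglia markers (median 1.01) lie to the right, the paralogs and border macrophage markers near 0 (medians 0.02 and 0.11), and the Purkinje cell markers to the left (median -0.83).

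Of the 22 calls, 13 were lost under at least 1 other setting. *Trem2*, *Tyrobp*, *Blnk*, *Ptpn6*, *Ptprc*, *Vav1*, *Rasal3*, *Nckap1l* and *Apbb1ip* were called under every setting in which they were tested. DESeq2 did not call *Syk*, *Lcp2*, *Plcg2*, *Pik3cg*, *Dock8* and *Hcls1*. Tests on log2 FPKM with limma and a pseudocount of 1 or 0.1 ended, with at least 1 of the pseudocounts, the calls of these genes and of *Fyb*, *Lat2*, *Pik3ap1*, *Inpp5d*, *Dock2* and *Arhgap30*, and a fold threshold of 1 on the log2 scale ended those of *Plek* and *Dock8*. Leaving out a single mouse ended the call of *Lcp2* (adjusted p = 0.0614 without Pcp2-cre mouse 2), *Plcg2* (0.0542 without control mouse 2 and 0.128 without Pcp2-cre mouse 2), *Dock8* (0.0597 without control mouse 1 and 0.0899 without Pcp2-cre mouse 3) and *Pik3cg* (0.068 to 0.0979 with each of 4 mice left out, namely control mice 2 and 3 and Pcp2-cre mice 2 and 3), all in edgeR's test.

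Counts without use of strand could also mix a gene with its neighbours, and whether strand was used is not given in the sources used here. In Gencode M39, exons of 20 of the 32 genes overlap those of another gene and exons of 12 do not. All 10 tested genes without an overlap, which include *Tyrobp*, *Syk*, *Blnk*, *Ptprc* and *Vav1*, were called upregulated, against 1.37% of all tested genes. *Btk* and *Was*, also without an overlap, did not pass the filter on low counts. Low genes such as *Syk* and *Blnk* were tested only through their Pcp2-cre counts, so this count follows in part from the filter. Whether neighbours add to the counts was not tested. *Trem2* shares 433 bases with an opposite-strand gene, *Gm65654*. Some of the overlapping genes, *Gm65654* among them, are not in the count table under these symbols.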

How the data were processed

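RNA from whole cerebella of perfused mice, 3 per genotype, was enriched for poly A and sequenced as read pairs. The authors trimmed and aligned the reads to GRCm39 (STAR) and deposited raw counts per Gencode gene (featureCounts) and, separately, FPKM values (StringTie). Versions, strand use and multi-mapping treatment are not given in the sources used here. Groups, sex and replicate numbers came from the labels. The count test was edgeR 4.0.16's quasi-likelihood test (R 4.3.3), fitted on all 16961 genes that passed filterByExpr, with TMM normalization. FPKM ratios were compared with exact permutation tests. Alternatives used DESeq2 1.42.0, its size factors, other filters, a replicate block, sex as a covariate, limma 3.58.1 on log2(FPKM + 1) or log2(FPKM + 0.1), other thresholds and each mouse left out. On simulated counts, 191 of 200 genes with a log2 change of 2 were called, and 11 unchanged ones of 16961 genes in all.

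The 32 genes, the lists and the tests were chosen with earlier results of these data known. Every mouse's value is given for *Trem2*, *Tyrobp* and *Syk*, for the smallest p in each role group, for genes not called or not tested, and for those at or under 3 counts in every mouse of a genotype. Of other lists, genes called or set beside these were named. Protein sequences were not used here. Some single genes and 1 sequence are not reported here.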

Additional observations from a re-analysis of the deposited data

How the results depend on the processing

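All 29 tested genes kept a positive log2 fold change under every alternative in which they were tested. The 22 calls stayed 22 with DESeq2 size factors, with the replicate block and with sex as a covariate, and were 16 with DESeq2, 25 of 32 without a filter on low counts, 16 with limma on log2(FPKM + 0.1) and 20 when the fold threshold was raised to a log2 value of 1. They were 10 of 16 tested with at least 10 counts in every mouse, since fewer genes were tested, and 11 with limma on log2(FPKM + 1). On that scale, which shrinks the change of low genes, most of the lost calls fell under the fold threshold. *Fyb*, *Lat2* and *Hcls1* kept a log2 fold change above 0.5 there and missed the threshold on limma's adjusted p (0.168, 0.115 and 0.0583). With each mouse left out the calls ranged from 19 to 22. The median log2 fold change, 1.23, was 1.53 with DESeq2, 1.51 without the filter, 0.95 with at least 10 counts, 0.51 and 1.02 with limma on log2(FPKM + 1) and log2(FPKM + 0.1), and 1.18 to 1.33 with each mouse left out. *Fermt3* was called with limma on log2(FPKM + 0.1) (adjusted p = 0.0267). Of the paralogs, 2 were higher and 4 lower at an adjusted p alone, and 1 was called downregulated without the filter, with sex as a covariate and in some fits with a mouse left out (0 to 1). Pathway genes called upregulated were 2 with at least 10 counts. Over all genes, 233 and 304 calls became 144 and 225 with DESeq2, 160 and 285 with at least 10 counts, and 126 and 155 or 144 and 167 with limma.

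Same-numbered mice hardly deviated together (correlations across genes of 0.0278, 0.0448 and 0.13), so the numbers were not taken to pair the mice. Mice numbered 3 correlated best with each other, but not every mouse did so with its own number. Mice numbered 3 are also the only females, so for them a shared number and a shared sex cannot be told apart. With the replicate block the median was 1.24. Depth gave only 10 of the 22 called genes at least 10 counts in every mouse, which limits how precisely single folds are known.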
